A study of Homo sapiens with 12 samples.

Results

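The genes described here are the 8 EGF family ligands TGFA, HBEGF, AREG, EREG, EPGN, BTC, EGF and NRG1. They were chosen by name, as the rows of the deposited gene table whose symbol equals a member, and all 8 were found among its 60591 genes. All 8 also passed the filter on low counts that left 19108 genes to be tested, although EREG passed it only through PC9 cells at T0. A fall of EREG from that group was therefore built into its being tested at all, so EREG is given below as a description of few reads. It is left out of the counts of ligands called, unless its inclusion is stated.

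EGF family ligands are made as membrane-anchored precursors. Metalloproteases of the ADAM family cut them at the cell surface and release the EGF-like domain, which binds ERBB receptors on the same or on neighboring cells. TGFA, AREG, EPGN and EGF bind EGFR. HBEGF, EREG and BTC bind EGFR and ERBB4, and NRG1 binds ERBB3 and ERBB4 but not EGFR. In epithelial and carcinoma cells, TGFA, HBEGF, AREG and EREG are known as genes that EGFR signaling through ERK induces, so that a receptor can sustain its own ligand supply.

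Polyadenylated RNA was sequenced from PC9 and H1650, established non-small cell lung cancer lines that carry an activating mutation in EGFR and no engineered change. T0 cells were collected at 0 h with 0.1% DMSO. The other cells were collected after 36 h with either 10 μM erlotinib, a reversible EGFR inhibitor, or 0.1 μM osimertinib, a covalent inhibitor of mutant EGFR. Each of the 6 groups had 2 replicates, 12 libraries in all. The labels number the replicates, and the study describes them as biological. How they were cultured apart is not given in the sources used here, and p-values measure the spread between these libraries. No vehicle library of 36 h was analyzed here, so the effect of a drug and that of 36 h in culture cannot be told apart. In such bulk RNA, fewer cells that make a transcript and less of it per cell cannot be told apart either.

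The libraries held 17961765 to 26346187 counted reads. A floor was set at 3 reads, about the one-sided 95% upper limit of the expected count where 0 reads are seen. It corresponds to 0.116 to 0.168 normalized CPM (CPM, the count relative to a library size scaled by edgeR's TMM factors). The floor is a limit from counting alone, because the reads carried no molecular identifiers and need not each be a separate molecule. Epithelial markers (EPCAM, CDH1, KRT8, KRT18 and KRT19) summed to between 5161 and 9149 CPM, and were lowest after erlotinib in both lines. The lung lineage markers NKX2-1 and SFTPC had at most 0.0932 CPM, and NAPSA at most 1.85 CPM. Of 6 fibroblast markers, DCN and LUM had at most 0.0560 CPM, while COL1A1 reached 44.7 CPM in PC9 and COL3A1 19.8 CPM in H1650. Leukocyte and endothelial markers summed to at most 3.96 and 5.54 CPM. The endothelial sum was higher than at T0 after both drugs in both lines, the fibroblast sum after osimertinib in both lines, and the leukocyte sum after osimertinib in H1650 (3.25 to 3.96 against 1.85 to 2.52 CPM). In H1650 the leukocyte sum was mostly CD14 (1.53 to 3.96 CPM), with PTPRC at most 0.193 CPM and CD3E at 0 CPM. The part of these markers in the results was not tested.

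In GENCODE 29 on GRCh38, 5 of the 8 genes lie on chromosome 4. EPGN (74308473 to 74315307), EREG (74365143 to 74388751) and AREG (74445134 to 74455009) follow each other on the plus strand, and BTC (74744759 to 74794686) lies next to them on the minus strand. These 4 are the only protein-coding genes in a stretch of 486.2 kb, whose other 2 annotated genes had 0 reads in every library. EGF lies farther along chromosome 4 (109912884 to 110012266, plus strand). TGFA is on chromosome 2 (70447280 to 70554193, minus strand) and HBEGF on chromosome 5 (140332843 to 140346631, minus strand). No exon of the 8 genes overlapped an exon of another gene.

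Promoter sequences were taken from the RefSeq table for GRCh38.p14 (250 bases before and 50 after the transcript start), which held 7 of the 8 genes. The 100 bases before the start are given for the 4 clustered genes, of which BTC rose and the other 3 fell in PC9, and for HBEGF and EGF, whose changes differed between the lines. Capitals mark letters found by search on both strands, with positions counted back from -1, the last base before the start.
EPGN (chr4:74308370-74308469, plus strand): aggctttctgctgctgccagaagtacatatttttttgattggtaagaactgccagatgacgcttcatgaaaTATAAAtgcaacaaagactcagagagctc
EREG (chr4:74365045-74365144, plus strand): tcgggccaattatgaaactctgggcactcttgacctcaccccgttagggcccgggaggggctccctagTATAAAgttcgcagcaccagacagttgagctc
AREG (chr4:74445036-74445135, plus strand): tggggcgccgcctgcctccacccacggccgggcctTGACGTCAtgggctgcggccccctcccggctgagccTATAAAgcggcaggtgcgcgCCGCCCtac
BTC (chr4:74794524-74794623, minus strand): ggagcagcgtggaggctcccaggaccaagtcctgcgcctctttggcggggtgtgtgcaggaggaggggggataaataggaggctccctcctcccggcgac
HBEGF (chr5:140346604-140346703, minus strand): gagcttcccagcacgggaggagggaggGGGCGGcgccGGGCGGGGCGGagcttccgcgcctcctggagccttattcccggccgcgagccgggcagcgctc
EGF (chr4:109912783-109912882, plus strand): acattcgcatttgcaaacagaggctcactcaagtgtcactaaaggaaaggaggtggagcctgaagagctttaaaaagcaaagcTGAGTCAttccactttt

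The letters TATAAA, those of a TATA box, began at -29 in EPGN, -32 in EREG and -29 in AREG. They were found in 3 of the 7 ligands with a window and in 11.5% of all 35116 promoter windows. AREG also held TGACGTCA, the cyclic AMP response element, at -65, which 1.85% of all windows hold. The letters TGANTCA of AP-1 were found at -17 in EGF and in 7.71% of all windows. The letters GGGCGG, of the GC box, were found for 4 of the 7 ligands (TGFA, HBEGF, AREG and BTC) and in 45% of all windows. HBEGF held 5 of these, 3 of them in the bases shown, where the second and the third overlap by 1 base, and the AREG match is on the other strand (CCGCCC). The letters GTAAACA, bound by FOXO factors, lay at -231 in BTC, outside the bases shown, and in 3.42% of all windows. The letters CCGGAAG, bound by ETS factors, were in 0 of the 7 and in 10.3% of all windows. These are matches of letters only, and a ligand is counted if any of its windows matches. TGFA has more than 1 window.

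With erlotinib in PC9, 5 of the 7 ligands other than EREG were lower than at T0 and BTC was higher, by edgeR's quasi-likelihood test (two-sided, adjusted p under 0.05, Benjamini-Hochberg over the 19108 genes). EGF was not called. The same test called 61.8% of all tested genes, 29.1% as lower and 32.7% as higher, so 6 called of 7 is to be read against that share. With osimertinib in PC9, 4 of the 7 were lower and 1 higher, beside 28.7% and 32.7% of all genes (61.4% in all). In H1650, 5 of the 7 were lower and 1 higher with erlotinib, where 18.5% and 18.0% of genes were called (36.5% in all). With osimertinib, 6 were lower and 1 higher, beside 17.9% and 17.8% (35.7% in all). The median log2 fold change of the 7 ligands was -1.0 with erlotinib and -0.99 with osimertinib in PC9, and -0.57 and -0.94 in H1650. The median of all tested genes was between 0 and 0.0743 in the same comparisons. TGFA, HBEGF and EPGN were called lower and BTC higher in all 4 comparisons. The comparisons of each line share its T0 libraries.

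**Figure D1:**
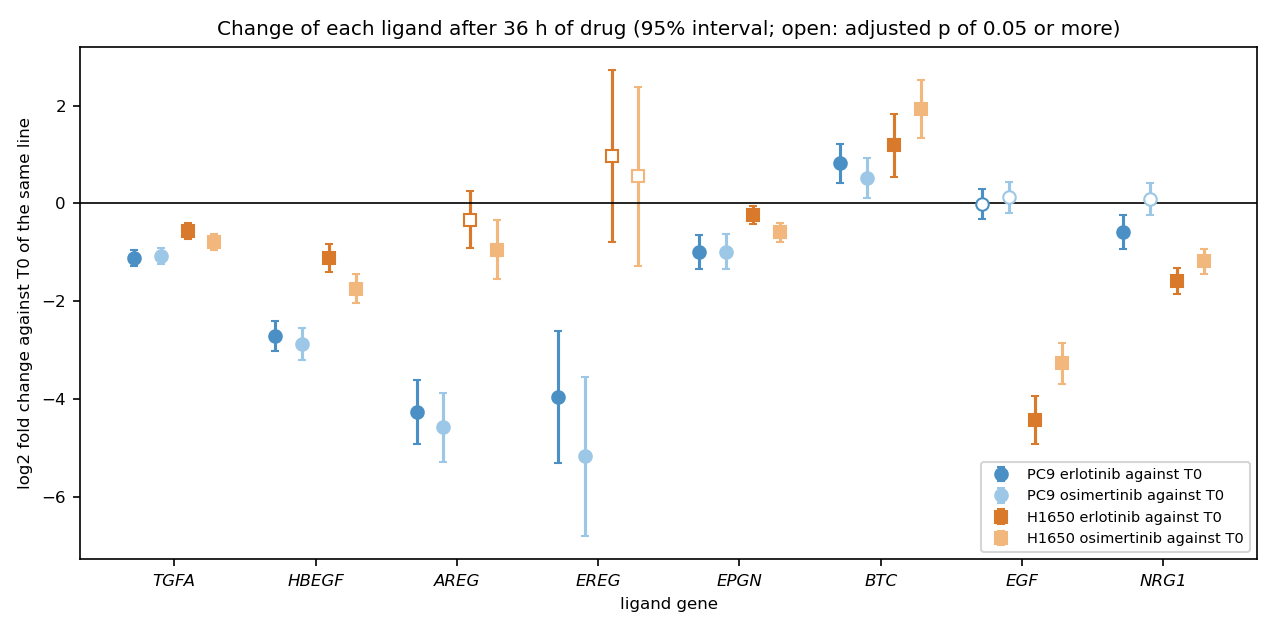
Log2 fold change of each ligand against T0 of the same line after 36 h of drug, with 95% intervals from the edgeR fit (circles, PC9; squares, H1650; open symbols, adjusted p of 0.05 or more). HBEGF and TGFA lie below 0 and BTC above 0 in all 4 comparisons, AREG and EREG (tested only through its PC9 T0 level) are lowest in PC9, and EGF lies near 0 in PC9 and between -4.43 and -3.28 in H1650.

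TGFA, a high-affinity EGFR ligand, fell in both lines with both drugs. In PC9 it measured 139 and 142 CPM at T0, 62.0 and 67.7 with erlotinib, and 61.4 and 72.0 with osimertinib. The drug-treated libraries overlapped each other and lay far below T0. The log2 fold change was -1.11 (SE 0.0804, adjusted p = 1.3e-12) with erlotinib and -1.08 (SE 0.0810, adjusted p = 2.9e-12) with osimertinib, or 2.16-fold and 2.11-fold lower. In H1650 it measured 162 and 166 CPM at T0, 108 and 113 with erlotinib, and 96.0 and 92.4 with osimertinib. No libraries of these 3 groups overlapped. The log2 fold change there was -0.57 (SE 0.0783, adjusted p = 1.3e-06) and -0.80 (SE 0.0787, adjusted p = 5.1e-09).

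HBEGF, a heparin-binding ligand whose precursor is also the diphtheria toxin receptor, fell more than TGFA in every comparison by its fitted value. In PC9 it went from 28.9 and 30.3 CPM at T0 to 4.07 and 4.95 with erlotinib and to 4.07 and 3.98 with osimertinib. The T0 libraries were several times higher than all treated ones. Its log2 fold change was -2.71 (SE 0.151, adjusted p = 4.4e-15) and -2.88 (SE 0.158, adjusted p = 2.9e-15), or 6.53-fold and 7.35-fold lower. In H1650 it went from 22.6 and 18.97 CPM to 9.43 and 9.72 with erlotinib and to 7.01 and 5.38 with osimertinib. The 3 groups did not overlap. There the log2 fold change was -1.11 (SE 0.141, adjusted p = 3.5e-07) and -1.74 (SE 0.148, adjusted p = 2.9e-10).

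AREG, an EGFR ligand of lower affinity, had the largest fitted fall in PC9 of the 7 ligands other than EREG. It measured 10.1 and 9.52 CPM at T0 (200 and 193 reads), 0.537 and 0.468 with erlotinib (12 reads in each library), and 0.508 and 0.280 with osimertinib (11 and 5 reads). The T0 libraries stood far above the treated ones, which overlapped each other. The fitted log2 change was -4.27 (SE 0.319, adjusted p = 2.6e-12) with erlotinib and -4.58 (SE 0.344, adjusted p = 2.6e-12) with osimertinib, or 19.4-fold and 23.9-fold lower. Only 168 and 86 of the 19108 tested genes had a lower value in these comparisons.

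In H1650, AREG was already lower at T0, with 2.89 and 3.05 CPM. It measured 3.04 and 1.72 CPM with erlotinib and 1.43 and 1.65 with osimertinib. The erlotinib libraries differed from each other, and 1 of them lay within the T0 range. The change with erlotinib was not called (log2 fold change -0.33, SE 0.280, 95% interval -0.90 to 0.24, adjusted p = 0.389). With osimertinib it was -0.94 (SE 0.294, adjusted p = 0.0126). That call was lost without replicate 1 of osimertinib (-0.85, adjusted p = 0.0839) or replicate 2 of T0 (-0.90, adjusted p = 0.0571).

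EREG, which binds EGFR and ERBB4, had few reads outside PC9 cells at T0. There it had 46 and 73 reads (2.32 and 3.60 CPM), against 1 and 8 reads with erlotinib and 1 and 2 with osimertinib. The reads of both libraries together gave a ratio of T0 to erlotinib of 15.8 (95% counting interval 8.05 to 35.4, 119 against 9 reads). For osimertinib the ratio was 39.0 (13.04 to 192, 119 against 3 reads). These intervals cover counting alone, leave out the spread between libraries, and are not a test. The fitted fold changes, -3.95 and -5.18 on the log2 scale, depend on the prior count, and no test is given, because EREG was tested only through its high PC9 T0 level. Without replicate 2 of PC9 erlotinib the first was -5.87, without replicate 1 it was -3.22, and without replicate 2 of PC9 osimertinib the second was -5.84. In H1650, EREG had 6 and 2 reads at T0, 2 and 12 with erlotinib, and 7 and 4 with osimertinib. At this depth no change was detectable in that line (adjusted p of 0.413 and 0.685).

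EPGN, the gene at the start of the cluster, encodes epigen, an EGFR ligand of low affinity. In PC9 it measured 7.10 and 5.67 CPM at T0, 2.68 and 3.63 with erlotinib, and 3.47 and 2.91 with osimertinib. All treated libraries lay below both T0 libraries, and the drugs overlapped. On the log2 scale the change was -1.0 (SE 0.169, adjusted p = 8.8e-06) with erlotinib and -0.99 (SE 0.176, adjusted p = 1.8e-05) with osimertinib. In H1650 it measured 119 and 125 CPM at T0, 96.4 and 110 with erlotinib, and 77.4 and 84.1 with osimertinib. The groups followed each other without overlap. The fall with osimertinib was -0.59 (SE 0.0910, adjusted p = 7.0e-06) and that with erlotinib was -0.24 (SE 0.0903, adjusted p = 0.0379). The erlotinib call was lost with at least 10 counts in every library (-0.22, adjusted p = 0.0532). It was also lost without replicate 1 of H1650 T0 (-0.28), replicate 2 of H1650 T0 (-0.20) or replicate 1 of H1650 erlotinib (-0.14).

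BTC, betacellulin, lies beside AREG on chromosome 4 and was the ligand that rose. In PC9 it measured 4.63 and 5.87 CPM at T0, 8.32 and 10.2 with erlotinib, and 7.67 and 7.34 with osimertinib. All treated libraries were above both T0 libraries. The log2 fold change was 0.82 (SE 0.193, adjusted p = 0.000568) with erlotinib and 0.51 (SE 0.199, adjusted p = 0.0265) with osimertinib. The osimertinib call was lost in DESeq2 (0.50, adjusted p = 0.0765), without a filter (adjusted p = 0.115) and without replicate 1 of PC9 T0 (0.35, adjusted p = 0.240), replicate 1 of PC9 osimertinib (0.48, adjusted p = 0.107) or replicate 2 of PC9 osimertinib (0.54, adjusted p = 0.0578). In H1650, BTC was low at T0, at 0.652 and 0.848 CPM (14 and 22 reads). It measured 1.65 and 1.81 CPM with erlotinib and 3.0 and 2.80 with osimertinib. The 3 groups did not overlap. Its log2 fold change was 1.19 (SE 0.315, adjusted p = 0.00360) and 1.93 (SE 0.287, adjusted p = 4.7e-06).

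EGF, the founding ligand of the family, had nearly the same level in both lines at T0 and then fell in H1650. In PC9 it measured 11.5 and 10.7 CPM at T0, 10.4 and 11.5 with erlotinib, and 11.97 and 12.2 with osimertinib. The erlotinib libraries overlapped the T0 libraries, and those with osimertinib were slightly above them. The fitted log2 change was -0.018 (95% interval -0.33 to 0.29, adjusted p = 0.945) with erlotinib and 0.12 (-0.19 to 0.43, adjusted p = 0.50) with osimertinib.

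In H1650, EGF went from 10.1 and 12.2 CPM at T0 (217 and 317 reads) to 0.567 and 0.465 with erlotinib (11 and 10 reads) and to 1.10 and 1.20 with osimertinib (23 and 27 reads). All 4 treated libraries were far below T0, and the 2 drug groups did not overlap. On the log2 scale the change was -4.43 (SE 0.243, adjusted p = 4.1e-14) with erlotinib and -3.28 (SE 0.206, adjusted p = 9.3e-13) with osimertinib, or 21.6-fold and 9.69-fold lower. Only 30 tested genes had a lower value than EGF with erlotinib in this line, and 86 with osimertinib.

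NRG1 (chromosome 8, 31639386 to 32767959, plus strand), a neuregulin that binds ERBB3 and ERBB4, fell in H1650 and in PC9 with erlotinib. In H1650 it measured 30.3 and 30.0 CPM at T0, 10.4 and 9.58 with erlotinib, and 13.97 and 12.5 with osimertinib. The 3 groups did not overlap. The log2 fold change was -1.59 (SE 0.127, adjusted p = 8.7e-11) and -1.18 (SE 0.123, adjusted p = 1.2e-08). In PC9 it measured 5.54 and 5.77 CPM at T0, 3.62 and 3.90 with erlotinib, and 5.82 and 6.27 with osimertinib. The erlotinib libraries were lower than all others of this line. Its log2 fold change was -0.59 (SE 0.165, adjusted p = 0.00311) with erlotinib and 0.094 (95% interval -0.23 to 0.42, adjusted p = 0.636) with osimertinib.

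**Figure D2:**
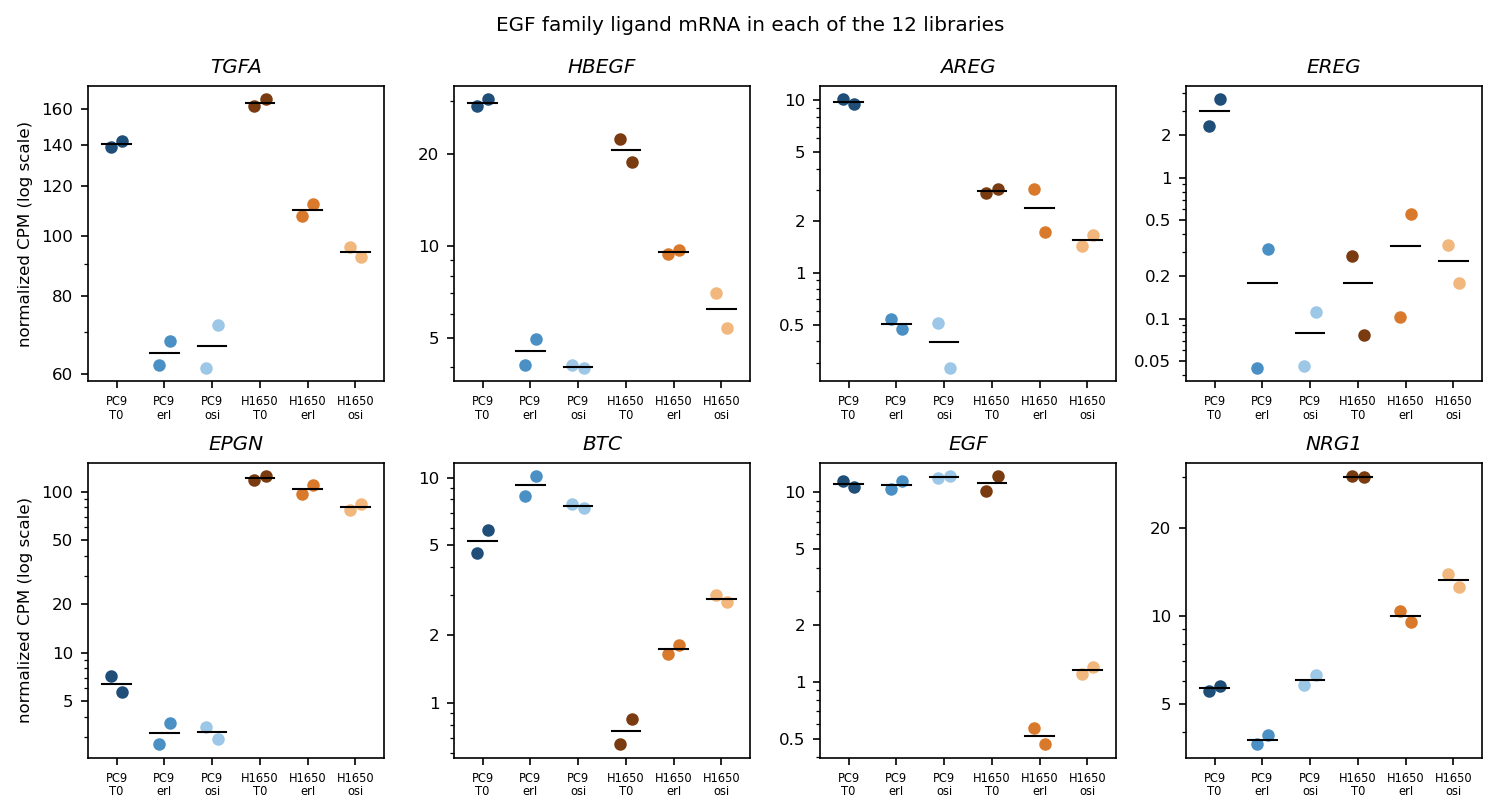
Normalized CPM of each ligand in each of the 12 libraries on log axes that differ between panels (points, libraries; lines, means of 2; erl, erlotinib; osi, osimertinib). AREG and EREG are highest in PC9 T0, EPGN and NRG1 are higher in H1650 than in PC9, and EGF lies between 10.1 and 12.2 CPM in every library but those of drug-treated H1650.

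The drugs were compared directly at the doses used, 10 μM erlotinib and 0.1 μM osimertinib, which differ, so the test compares these treatments and not the compounds at 1 dose. In PC9, 1 of the 7 ligands other than EREG was called, beside 16.6% of all genes (10.1% higher and 6.41% lower with osimertinib). It was NRG1, which was higher with osimertinib (log2 difference 0.68, 95% interval 0.34 to 1.02, adjusted p = 0.00391). The intervals of the other 6 included 0, from -0.13 to 0.21 for TGFA and from -1.35 to 0.74 for AREG. In H1650, 3 of these 7 ligands were called, beside 8.75% of all genes (5.02% higher and 3.73% lower). HBEGF (-0.63, 95% interval -0.96 to -0.31, adjusted p = 0.00995) and EPGN (-0.35, -0.54 to -0.17, adjusted p = 0.0124) were lower with osimertinib, and EGF was higher (1.15, 0.43 to 1.88, adjusted p = 0.0387).

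Each of these H1650 calls was lost in some fits with 1 library left out, where a group keeps only 1 library. The log2 differences kept their sign in all such fits. HBEGF was not called without replicate 2 of H1650 erlotinib (-0.60, adjusted p = 0.0712) or replicate 2 of H1650 osimertinib (-0.45, adjusted p = 0.189). EPGN was not called without replicate 2 of H1650 erlotinib (-0.25, adjusted p = 0.236) or replicate 1 of H1650 osimertinib (-0.29, adjusted p = 0.194). EGF was not called without any 1 of the 4 H1650 drug libraries, with a log2 difference of 1.02 to 1.29. It was also not called in DESeq2 (1.17, adjusted p = 0.0555), without a filter (adjusted p = 0.0614) or in 1 fit per line (adjusted p = 0.0572). TGFA (-0.23), BTC (0.74) and NRG1 (0.41) had adjusted p values of 0.0771, 0.0709 and 0.0559 in the same comparison, and all 3 were called with the replicate number as a block (adjusted p of 0.0121, 0.0442 and 0.0330).

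Before treatment, H1650 differed from PC9 in 6 of the 7 ligands other than EREG, 3 higher and 3 lower, beside 69.6% of all tested genes (35.8% higher and 33.8% lower). EPGN stood out by size, at 122 ± 4.76 CPM (SD, n = 2) in H1650 and 6.39 ± 1.01 in PC9. Its log2 difference of H1650 minus PC9 was 4.26 (SE 0.119, adjusted p = 5.5e-22). NRG1 was also higher in H1650, at 30.1 ± 0.212 CPM against 5.66 ± 0.162 (log2 difference 2.41). TGFA was higher by 0.22 (adjusted p = 0.0133), a call that was lost without a filter (0.17, adjusted p = 0.0933). It was also lost without replicate 1 of PC9 T0 (0.20), replicate 1 of H1650 T0 (0.22) or replicate 2 of H1650 T0 (0.20).

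Lower in H1650 at T0 were AREG (2.97 ± 0.110 against 9.80 ± 0.393 CPM), HBEGF (20.8 ± 2.54 against 29.6 ± 1.00), and BTC (0.750 ± 0.138 against 5.25 ± 0.873). The log2 differences were -1.72, -0.52 and -2.78. EREG, as a description, had 119 reads in PC9 and 8 in H1650, a ratio of 17.6 (95% counting interval 8.63 to 41.6). That interval, too, leaves out the spread between libraries. EGF was at 11.2 ± 1.49 CPM in H1650 and 11.1 ± 0.624 in PC9, with a log2 difference of 0.014 (95% interval -0.29 to 0.32, adjusted p = 0.941).

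After either drug, all 7 ligands other than EREG differed between the lines, 5 of them higher and 2 lower in H1650. Of all genes, 72.1% differed after erlotinib (36.7% higher and 35.4% lower) and 71.6% after osimertinib (36.6% higher and 35.0% lower). AREG and HBEGF were then higher in H1650, the opposite order to T0. For AREG the log2 difference was 2.23 after erlotinib and 1.92 after osimertinib. For HBEGF it was 1.08 and 0.62, and the second was not called without replicate 1 of H1650 osimertinib (0.42, adjusted p = 0.0900). EGF was lower in H1650 by a log2 difference of -4.40 after erlotinib and -3.39 after osimertinib. EPGN, NRG1 and TGFA stayed higher and BTC lower in H1650 after both drugs. EREG was not called in either case.

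Across the 6 groups, EPGN had the widest range of mean levels among the members with at least 1 CPM on average, 38.6-fold from H1650 T0 down to PC9 erlotinib. The range was 24.9-fold for AREG, 23.4-fold for EGF, 12.3-fold for BTC, 8.01-fold for NRG1, 7.37-fold for HBEGF and 2.52-fold for TGFA. For HBEGF, BTC and NRG1, no neighbors in the order of the 6 groups overlapped. For TGFA and EPGN only the drug groups of PC9 did, and for AREG these and H1650 at T0 with H1650 after erlotinib. For EREG every neighbor overlapped below PC9 T0. For EGF the groups of PC9 and H1650 T0 formed 1 overlapping set above both H1650 drug groups.

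Whether the lines responded differently was tested as the H1650 change less the PC9 change. Of the 7 ligands other than EREG, 6 were called with each drug, 4 positive and 2 negative. Of all genes, 40.8% were called with erlotinib (21.1% positive and 19.8% negative) and 41.9% with osimertinib (21.5% positive and 20.5% negative). Positive values mean a smaller fall or a larger rise in H1650. With erlotinib the differences were 3.95 for AREG, 1.60 for HBEGF, 0.76 for EPGN and 0.54 for TGFA. EGF (-4.41) and NRG1 (-1.01) went the other way. BTC was not called with erlotinib (0.37, 95% interval -0.39 to 1.13).

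With osimertinib the differences were 3.64 for AREG, 1.41 for BTC, 1.13 for HBEGF and 0.28 for TGFA, against -3.40 for EGF and -1.28 for NRG1. EPGN was not called (0.40, 95% interval -0.014 to 0.81, adjusted p = 0.117). The TGFA value had an adjusted p of 0.0474 and was not called in DESeq2 (0.28, adjusted p = 0.0607), with RLE (adjusted p = 0.0561) or upper quartile normalization (adjusted p = 0.0906), or with at least 10 counts in every library (adjusted p = 0.0517). Leaving out any 1 of the 8 libraries in this comparison, except replicate 2 of PC9 osimertinib, also ended its call, with values from 0.17 without replicate 1 of PC9 osimertinib to 0.32 without replicate 2 of H1650 osimertinib. The EREG differences, 4.92 with erlotinib and 5.73 with osimertinib, rest on the few reads given above and on the PC9 T0 level that alone let EREG pass the filter, so they are a description. Leaving out 1 library at a time moved them between 3.27 and 6.84 and between 5.04 and 6.84. The lowest of the first, 3.27, was that without replicate 2 of H1650 erlotinib, the library with 12 reads.

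**Figure D3:**
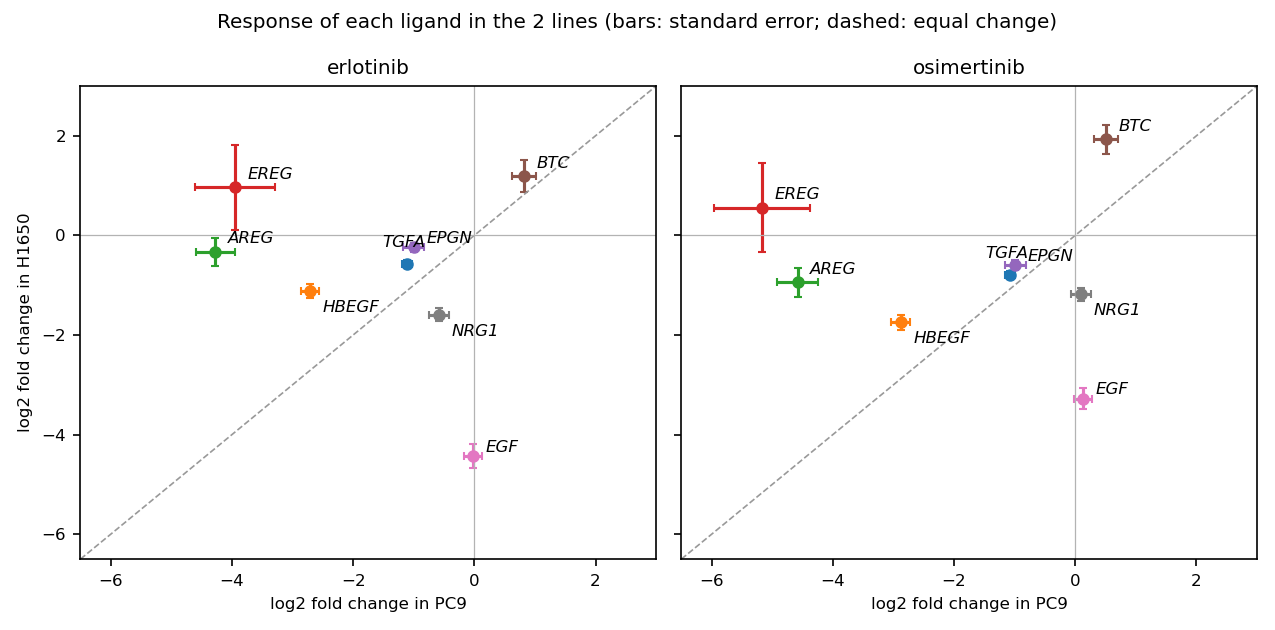
Log2 fold change of each ligand against T0 in PC9 (x axis) and in H1650 (y axis), for erlotinib on the left and osimertinib on the right, with standard errors (dashed line, equal change in both lines). AREG and HBEGF lie above the line, with a larger fall in PC9, and EGF and NRG1 lie below it, with a larger fall in H1650. EREG also lies above the line, but it was tested only through its PC9 T0 level and had few reads in H1650, so its place is a description.

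To compare levels between ligands, normalized CPM was divided by the length of the longest GENCODE 29 transcript of each gene. The summed level of the 8 ligands was 63.8 and 64.1 CPM per kb in PC9 at T0, 24.5 and 27.9 with erlotinib, and 25.4 and 27.2 with osimertinib. In H1650 it was 156 and 161 at T0, 114 and 126 with erlotinib, and 94.8 and 98.8 with osimertinib. In both lines every treated library lay below the T0 libraries. Every H1650 library was above every PC9 library with these lengths.

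TGFA made up 50.9% ± 0.679 (SD, n = 2) of the sum in PC9 at T0, HBEGF 19.4% ± 0.597 and AREG 12.4% ± 0.534. With erlotinib, AREG was at 1.56% ± 0.294 and HBEGF at 7.21% ± 0.334, while BTC went from 2.92% ± 0.476 to 12.5% ± 0.629. In H1650 at T0, EPGN made up 64.2% ± 0.915 and TGFA 23.9% ± 0.188. The share of EPGN depends on the length used: the deposited table gives 3299 bases for EPGN, where the longest transcript has 1196. With the deposited lengths, EPGN made up 45.0% and TGFA 40.5% in H1650 at T0, and the sums there were 81.1 and 83.2 CPM per kb, against 50.1 and 51.0 in PC9. The H1650 osimertinib sums were then 48.2 and 48.9, below PC9 at T0, while those of drug-treated PC9 were at most 22.4.

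**Figure D4:**
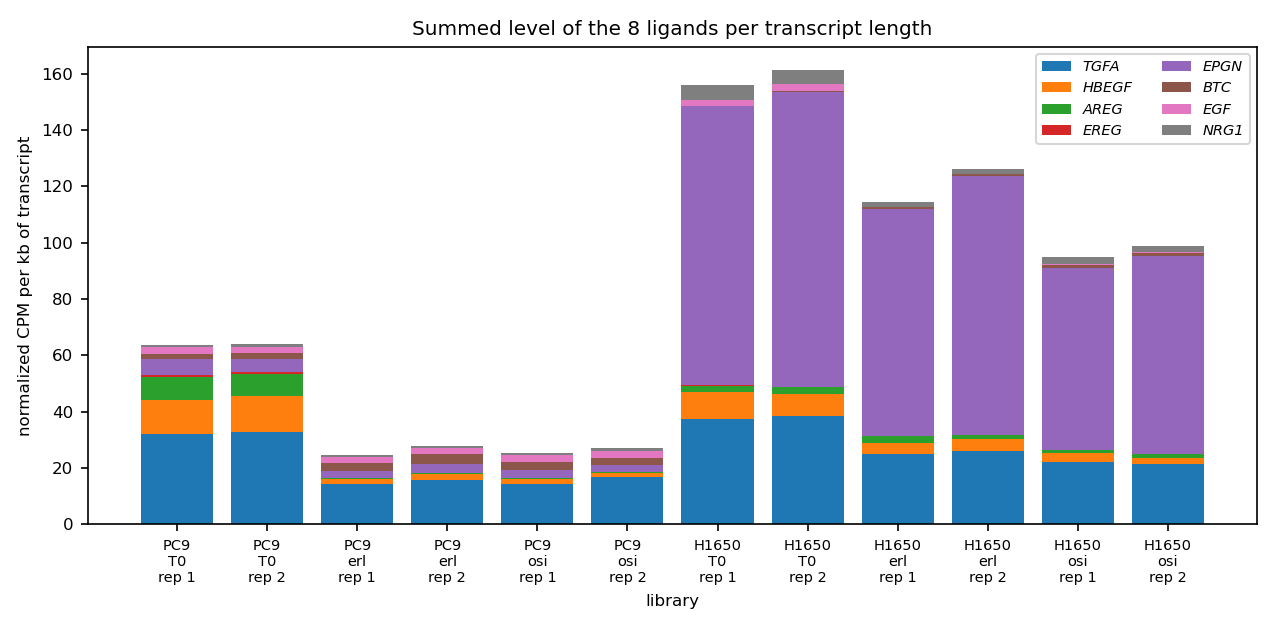
Normalized CPM per kb of the longest transcript, stacked over the 8 ligands, in each of the 12 libraries (erl, erlotinib; osi, osimertinib; rep, replicate). The bars are lower in every drug-treated library than at T0 of the same line, with TGFA the largest part in PC9 and EPGN the largest part in H1650.

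The receptors of these ligands moved in both directions. ERBB4 had too few reads to be tested, and of the other 3, all were called in PC9 with both drugs and in H1650 with erlotinib, beside 61.8%, 61.4% and 36.5% of all genes. ERBB3, which binds NRG1, rose in all 4 comparisons, by 1.48 and 1.68 on the log2 scale in PC9 and by 1.08 and 1.04 in H1650, erlotinib first. ERBB2, the co-receptor without a ligand of its own, also rose in all 4, by 1.01 and 1.11 in PC9 and 0.21 and 0.46 in H1650. EGFR fell by 0.79 with erlotinib and by 0.62 with osimertinib in PC9 and by 0.34 with erlotinib in H1650. With osimertinib in H1650 it was not called (0.029, adjusted p = 0.816). EGFR had 1163 CPM in PC9 and 579 in H1650 at T0.

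Of 14 genes for ligand maturation and shedding, all were tested. In PC9, 5 were called higher and 6 lower with erlotinib, and 4 higher and 7 lower with osimertinib. In H1650, 2 were higher and 3 lower with erlotinib, and 4 higher and 3 lower with osimertinib. The share called was 78.6% with either drug in PC9, beside 61.8% and 61.4% of all genes. In H1650 it was 35.7% with erlotinib, near the 36.5% of all genes, and 50% with osimertinib, beside 35.7%. The median log2 fold change of the 14 genes lay between -0.24 and -0.060. RHBDL2, a rhomboid protease of the cell surface, rose in all 4 comparisons, by 2.07 and 2.15 in PC9 and 0.53 and 0.83 in H1650. RHBDF1, which helps ADAM17 to mature and reach the surface, rose by 1.01 and 1.09 in PC9 and was not called in H1650 (-0.21 and -0.12). ADAM19 was lower in all 4, from -1.70 with erlotinib in PC9 to -0.61 with erlotinib in H1650. ADAM17 is the main sheddase of TGFA, HBEGF, AREG, EREG and EPGN. It was called higher with erlotinib in PC9 (0.28, adjusted p = 0.00424). With osimertinib in H1650 it was called at 0.22, but with an adjusted p of 0.0495, just under the threshold. Its values were 0.11 and -0.023 in the other 2 comparisons, neither called.

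Of 4 other neuregulins and EGF-like growth factors, only NRG2 and NRG4 had enough reads to be tested. Neither passed edgeR's test in a drug comparison (adjusted p of 0.159 to 1). NRG4, which binds ERBB4, was at 1.66 to 3.27 CPM in the 6 groups, and NRG2 was at 0 CPM in PC9 at T0 and at most 1.14 CPM elsewhere. Of 30 ligands of other receptor tyrosine kinases, 25 were tested. In PC9, 12 were called higher and 8 lower with erlotinib, and 11 and 9 with osimertinib. In H1650 the counts were 4 higher and 9 lower, and 6 higher and 9 lower. The share called was 80% with either drug in PC9, beside 61.8% and 61.4% of all genes, and 52% and 60% in H1650, beside 36.5% and 35.7%. Their median log2 fold change, between -0.087 and 0.23, was close to 0 where that of the 7 EGF family ligands was between -1.0 and -0.57. The ephrin EFNA1 (2.26 and 2.74 in PC9) and the PDGF ligand PDGFD (2.22 and 2.61) were among those that rose, and the ephrins EFNB1 (-1.98 and -2.16) and EFNB2 (-2.15 and -2.07) among those that fell in that line. In H1650, EFNB1 was not called (0.12 and -0.0047). EFNB2 had few reads there, 43 at T0, 7 with erlotinib and 5 with osimertinib, and was called lower with osimertinib (-2.91).

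For each ligand with a mean of at least 1 CPM, the tested genes of at least 10 CPM with the nearest values in the 4 drug comparisons were found by Euclidean distance on the log2 scale. The comparisons share T0 libraries within a line, and the distances are a description. AREG was nearest to CDC45 (distance 0.42) and ORC1 (0.45), both of which act at replication origins. For CDC45 these values were -4.43 and -4.26 in PC9, and in H1650 -0.50 and -0.79. NRG1 was nearest to the transcription factor gene JUN (0.22), with -0.58 and 0.19 in PC9 and -1.78 and -1.13 in H1650, and to PRPS1 (0.24). BTC was nearest to APOBEC3C (0.38) and SPTSSA (0.41), TGFA to TPRKB (0.15), EPGN to NEDD1 (0.13) and SPATA33 (0.13), and HBEGF to SPAG1 (0.61) and CYTOR (0.66). EGF had no near neighbor. The closest were NRCAM, at 1.35 and with at most 4 reads in any H1650 library, so that its values there depend on the prior count, and AOX1, at 1.56.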

How the data were processed

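RNA-seq counts of PC9 and H1650 cells at T0 or after 36 h with erlotinib or osimertinib were analyzed (6 groups, 2 replicates each), grouped by their labels. The authors processed reads in DolphinNext with featureCounts and deposited counts: whole reads for each gene in each library, not normalized. The genome build per the submitters' processing notes is GRCh38, and the aligner, annotation and strand setting are not given in the sources used here. The members and lists were chosen with earlier results of these data known. The text names the 8 members, for each list 2 to 4 called members of at least 10 CPM with the largest changes, and for each member of at least 1 CPM its 2 nearest genes, 1 of which is not reported here. ADAM17, ERBB4, NRG2 and NRG4 were named outside this rule, after their values were seen.

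Counts were tested in R 4.3.3 with edgeR 4.0.16: filterByExpr by group, TMM normalization (factors 0.941 to 1.08), and a quasi-likelihood F test on 1 fit of all 12 libraries with 6 group means. The test was two-sided with Benjamini-Hochberg adjustment over 19108 genes in each of 11 contrasts, and genes under 0.05 were called. Errors of levels are the SD of 2 libraries, and SE and 95% intervals come from the fit. Counting intervals are exact conditional intervals of reads summed over a group, and leave out the spread between libraries. Alternatives were DESeq2 1.42.0, other normalizations and filters, an adjusted p under 0.01, 1 fit per line, the replicate number as a block, each library left out, and, chosen after seeing the data, the deposited gene lengths. The procedure was tested on simulated data, drawn from the PC9 T0 means with 200 genes changed in 1 group. Far fewer genes changed there than were called here, so it does not show how the procedure behaves at such shares. Replicates of a group differed by more than counting noise (chi-square per degree of freedom 4.03 to 7.16). Protein sequences were not used here.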

Additional observations from a re-analysis of the deposited data

Results flagged for a closer look

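The response of each ligand to each drug was compared between the lines as the log2 fold change in H1650 minus that in PC9, tested in the edgeR fit with Benjamini-Hochberg adjustment over all 19108 genes. With erlotinib the difference was called for AREG (3.95, SE 0.439, adjusted p = 2.2e-08), TGFA (0.54, SE 0.112), HBEGF (1.60, SE 0.208), EPGN (0.76, SE 0.192), EGF (-4.41, SE 0.298, adjusted p = 1.1e-12) and NRG1 (-1.01, SE 0.209). With osimertinib it was called for AREG (3.64, SE 0.483, adjusted p = 4.4e-07), TGFA (0.28, SE 0.112), HBEGF (1.13, SE 0.221), BTC (1.41, SE 0.354), EGF (-3.40, SE 0.261, adjusted p = 1.4e-11) and NRG1 (-1.28, SE 0.201). EREG also passed the threshold, with 4.92 (SE 1.11) and 5.73 (SE 1.28), but it passed the filter on low counts only through PC9 T0, the level that makes these differences, so they are a description and not a tested call. The first was 3.27 (adjusted p = 0.171) without replicate 2 of H1650 erlotinib. All tested genes were called at 40.8% and 41.9% in these comparisons. The contrasts of the 2 drugs share the T0 libraries of both lines.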

How the results depend on the processing

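With osimertinib against erlotinib in H1650, the number of ligands called was 3, but 1 at an adjusted p under 0.01, 6 with the replicate number as a block, and 0 to 2 when 1 library was left out (0 without replicate 2 of H1650 erlotinib, 1 without either osimertinib library). Over all genes, 1672 were called there, 2670 with the block, and 1093, 1045 and 782 without replicate 1 or 2 of H1650 erlotinib or replicate 1 of H1650 osimertinib. In PC9, 3163 were called, and 2108 without replicate 2 of osimertinib. The osimertinib response difference was called for 7 ligands, EREG included, and for 4 of the 6 (all but AREG and EREG) that had at least 10 counts in every library. The other 9 counts of ligands, with EREG included, stayed within 1.5 times under every alternative. The block changed no other call. The labels do not say whether a replicate number pairs libraries, and the main fit held no replicate block. Deviations of same-numbered libraries correlated positively in all 15 pairs of groups (0.00188 to 0.448). Whether these reflect a shared replicate effect was not tested, and the fit with the block is given as an alternative.

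The values that changed sign were all uncalled. For EGF with erlotinib in PC9 the log2 fold change was 0.072 with upper quartile normalization, 0.030 with at least 10 counts in every library, and -0.098 to 0.052 with 1 library left out. For EGF between the lines at T0 it was -0.0091 in DESeq2, -0.0080 with RLE normalization, -0.042 without a filter, and -0.13 to 0.12 with 1 library left out. For EPGN with osimertinib against erlotinib in PC9 it was -0.0035 with upper quartile normalization, -0.010 without a filter, -0.0052 in 1 fit per line, and -0.18 to 0.26 with 1 library left out. Leaving out 1 library gave -0.82 to 0.021 for AREG, -1.96 to 0.70 for EREG and -0.082 to 0.15 for TGFA in the same comparison. It gave -0.78 to 0.027 for AREG and -0.70 to 2.05 for EREG with erlotinib in H1650, and -0.14 to 1.65 for EREG with osimertinib. It gave -1.12 to 1.26 for EREG between the drugs in H1650 and -0.82 to 2.77 for EREG between the lines after erlotinib. Of the 48 mean levels, 5 moved by more than 1 SD with upper quartile normalization and 0 with RLE. Depth limits EREG, which had at most 12 reads in every library outside PC9 T0. The cause of these shifts was not tested.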
